A study of Rattus norvegicus with 6 samples.

Results

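The cytosolic ribosomal protein genes encode the proteins of the large (60S) and small (40S) ribosomal subunits, which translate every mRNA outside the mitochondria. They were taken as all genes whose platform symbol begins with Rpl or Rps and a digit, with Rplp and a digit, or is Rpsa, leaving out Rps9 and the ribosomal S6 kinases. That gave 66 of the 13337 named genes on the array, each read by a single probe. By symbol, 35 belong to the 60S subunit, 22 to the 40S subunit and 3 to the P-stalk, while 5 are paralogs (Rpl3l, Rpl7l1, Rpl22l1, Rpl36al1 and Rpl37l1). The last, Rps19bp1, matches by its name only, since it encodes a protein that binds Rps19 and is no part of the ribosome.

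Bead arrays were hybridized with total RNA from liver outside the tumors of 6 male Wistar rats. All 6 received diethylnitrosamine (DEN), a liver carcinogen, at 50 mg/kg by weekly intraperitoneal injection for 18 weeks. The 3 EGCG rats (EGCG_228, EGCG_234 and EGCG_236) also drank 0.02% epigallocatechin gallate, the main catechin of green tea, on 5 days a week in weeks 13 to 18, and the 3 water rats (water_224, water_227 and water_237) drank water. They were killed at week 19, after a washout, and there was no group without DEN. The labels give no age, and values per group below follow the order of the rats just given.

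A mammalian cell makes each ribosomal protein in step with the ribosomal RNAs, and surplus protein is degraded. The mRNAs begin with a run of pyrimidines, the TOP sequence, through which mTORC1 and the protein Larp1 control their translation together. In liver they are among the most abundant mRNAs. Their families have many near-identical processed pseudogenes, and a probe may read more than one copy.

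Among the 66 genes, 55 had a promoter sequence in RefSeq (build GRCr8; 250 bases before to 50 after the annotated start). An unbroken run of at least 7 C or T on the gene's strand, touching the 10 bases on either side of the start, was present in 40 of the 55 (72.7%). The share was 19.1% of all 33469 promoters in the table and 17.9% of the 7986 belonging to named genes tested here. Read on the opposite strand, the same kind of run was in 7.27% of the ribosomal protein promoters and 21.2% of all promoters. The literal CTTTCC, which can lie inside such a run, was within 20 bases of the start on the gene's strand in 29.1% of them in 1.73% of all promoters and in 2.02% of those of named genes tested. Over the whole 300 bases and both strands the 3 shares were 45.5%, 26.4% and 26.3%. CCGGAAG, a core of ETS factor sites, was in 30.9% of ribosomal protein promoters, 8.75% of all promoters and 16% of those of named genes tested (both strands, 300 bases). On the same count and in the same order, AAGATGG stood in 14.5%, 7.01% and 7.78%, and CACGTG, the E-box, in 7.27%, 6.42% and 8.85%. TATAAA stood in 9.09% of ribosomal protein promoters and 14.2% of all, but in 9.18% of those of named genes tested.

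The starts of 7 members described below are shown so that the run and its distance from the start can be compared. Each line gives 80 bases before and 20 after the start, 5′ to 3′ on the gene's strand. Capitals mark the C/T run counted at the annotated start, and Rps6 and Rpl22l1, shown for contrast, had none there.
Rplp0 (GRCr8 chr12:46718371-46718470, minus strand): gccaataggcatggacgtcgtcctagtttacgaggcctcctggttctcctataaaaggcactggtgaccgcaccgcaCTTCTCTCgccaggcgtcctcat
Rps14 (GRCr8 chr18:56498180-56498279, plus strand): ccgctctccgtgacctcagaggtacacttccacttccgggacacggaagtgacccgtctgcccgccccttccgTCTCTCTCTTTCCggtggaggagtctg
Rpl22 (GRCr8 chr5:168117881-168117980, plus strand): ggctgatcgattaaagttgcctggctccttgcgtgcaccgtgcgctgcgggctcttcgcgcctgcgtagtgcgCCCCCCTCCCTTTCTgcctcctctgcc
Rpl13a (GRCr8 chr1:104748894-104748993, minus strand): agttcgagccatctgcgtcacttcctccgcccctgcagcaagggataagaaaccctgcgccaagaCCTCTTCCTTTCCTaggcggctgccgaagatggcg
Rpl21 (GRCr8 chr12:13386134-13386233, minus strand): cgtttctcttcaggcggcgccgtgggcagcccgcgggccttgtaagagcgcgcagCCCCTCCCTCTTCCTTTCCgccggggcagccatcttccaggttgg
Rps6 (GRCr8 chr5:106420521-106420620, minus strand): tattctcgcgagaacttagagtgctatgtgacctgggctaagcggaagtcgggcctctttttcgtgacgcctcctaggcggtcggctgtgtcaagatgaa
Rpl22l1 (GRCr8 chr2:113683116-113683215, plus strand): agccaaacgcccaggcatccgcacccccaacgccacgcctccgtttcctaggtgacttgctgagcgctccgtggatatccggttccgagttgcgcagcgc
The run was 8 bases long in Rplp0, 13 in Rps14 and 15 in Rpl22 and spanned the annotated start in all 3. In Rpl13a (14 bases) and Rpl21 (19 bases) it ended just before the start. No run of at least 7 C or T touched the annotated start of Rps6 or of the paralog Rpl22l1. The printed Rps6 stretch does hold such a run (cctctttttc), further before the annotated start and so not counted.

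The median non-normalized intensities of the arrays ran from 112 to 120, and their means from 382 (water_237) to 531 (water_224). EGCG_236 and water_237 had the lowest medians (112 and 113), the lowest minima (53.4 and 60.4) and the lowest means (449 and 382). Most ribosomal protein genes had their highest normalized value in one of these same rats, as given below. The part of array intensity in that pattern was not tested. After background correction and quantile normalization, all levels below are log2 values, and all differences are EGCG minus water. The 13514 probes at or above the 40th percentile (log2 6.39) were tested with limma, Benjamini-Hochberg adjusted. The hepatocyte markers measured here, among them albumin (Alb) and transferrin (Tf), were bright in every rat. In whole tissue, fewer cells of a type and less RNA per cell cannot be told apart.

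No ribosomal protein gene passed the test, and the members differed together between single rats, above all within the EGCG group. Of the 66, 62 passed the filter, and 0 of these were higher and 0 lower at an adjusted p under 0.05 (limma; 0 also at an unadjusted p under 0.05). Over all 9193 named genes tested, 0.566% were called, 0.120% higher and 0.446% lower, and 11.6% had an unadjusted p under 0.05. The log2 difference was below 0 for 51 of the 62 (82.3%), against 48.9% of all named genes. The median difference was -0.14 over the 62 members and 0.00 over all named genes. Differences ran from -0.36 (Rpl13a) to 0.17 (Rps19bp1), with standard errors (SE) from 0.10 to 0.31 and adjusted p from 0.500 to 0.996. The 95% interval of the difference lay inside a 2-fold change for all 62 tested members, and inside a 1.5-fold change for 38. These intervals are for single genes and are not adjusted for the number of genes.

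**Figure D1:**
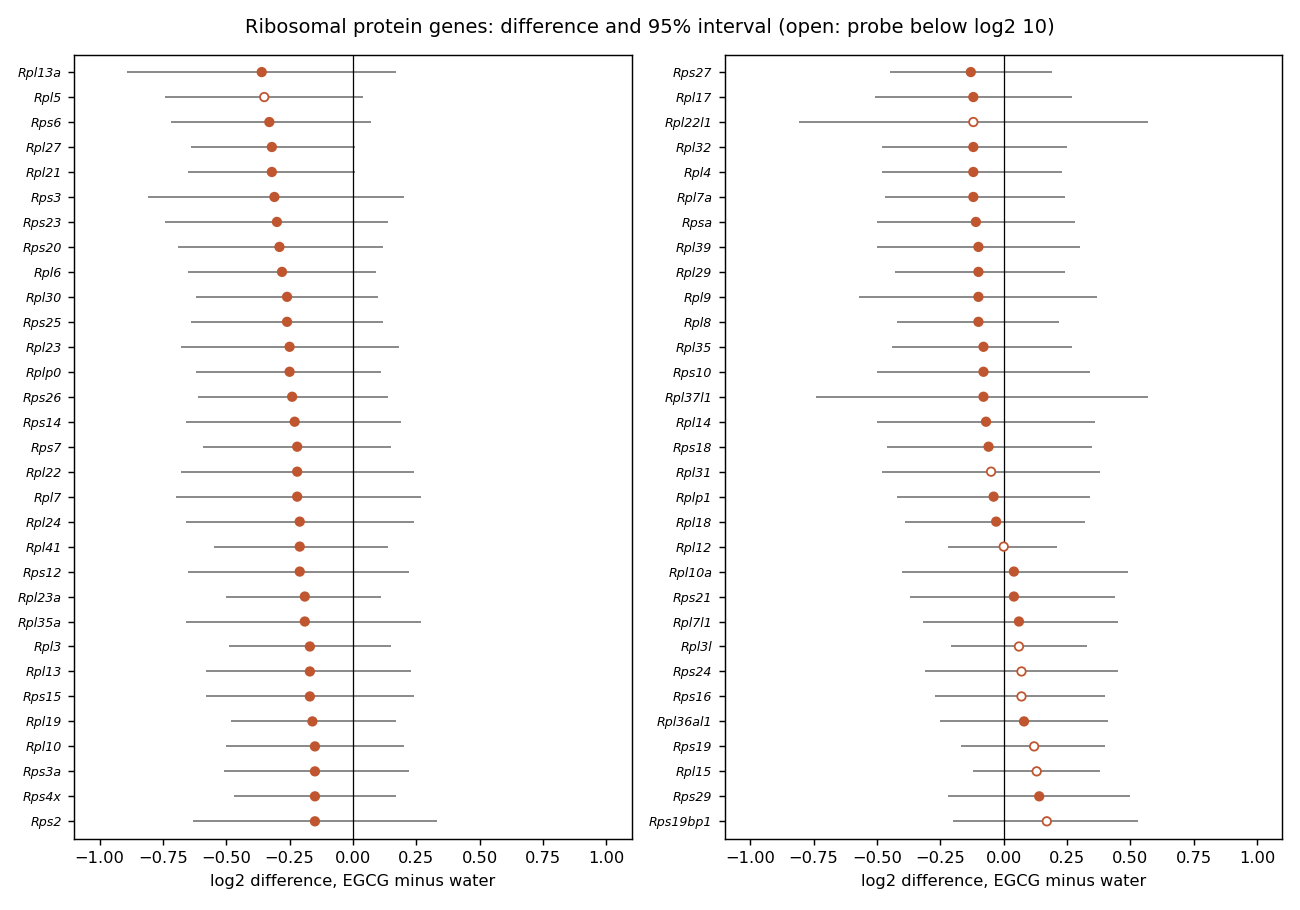
Difference between EGCG and water rats for each of the 62 tested ribosomal protein genes. The x axis is the log2 difference, EGCG minus water, points are the fitted values (filled above log2 10, open below) and lines are 95% intervals from limma (3 rats per group). Points run from -0.36 for Rpl13a to 0.17 for Rps19bp1, and every interval includes 0.

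The rats separated clearly within the EGCG group. For this, the 52 members whose probes averaged above log2 10 were used, because the remaining 14 lay between 6.03 and 8.81, well apart from the lowest of the 52 (10.91). That limit was set after the values were seen. Relative to the mean of the water rats, the median of the 52 was -0.29 in EGCG_228, -0.32 in EGCG_234 and 0.13 in EGCG_236, against -0.09 in water_224, -0.02 in water_227 and 0.09 in water_237. EGCG_228 and EGCG_234 were thus low and EGCG_236 level with or above the water rats. In the 1122 other named genes above log2 10, the 6 medians all lay between -0.03 and 0.03. Quantile normalization gives all arrays the same distribution, which by itself holds the medians of so large a set near 0.

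Gene by gene the same order recurred. EGCG_236 lay above both other EGCG rats in 50 of the 52 members (96.2%), against 39.3% of the other 1122 genes. EGCG_228 and EGCG_234 both lay below all 3 water rats in 41 members (78.8%), against 22.1% of the others. The highest value of the 6 rats was that of EGCG_236 in 25 members and of water_237 in 23, and the lowest that of EGCG_234 in 25 and of EGCG_228 in 23. No member had its lowest value in EGCG_236. The median distance from the mean of EGCG_228 and EGCG_234 up to EGCG_236 was 0.44 in the members and -0.04 in the other genes.

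**Figure D2:**
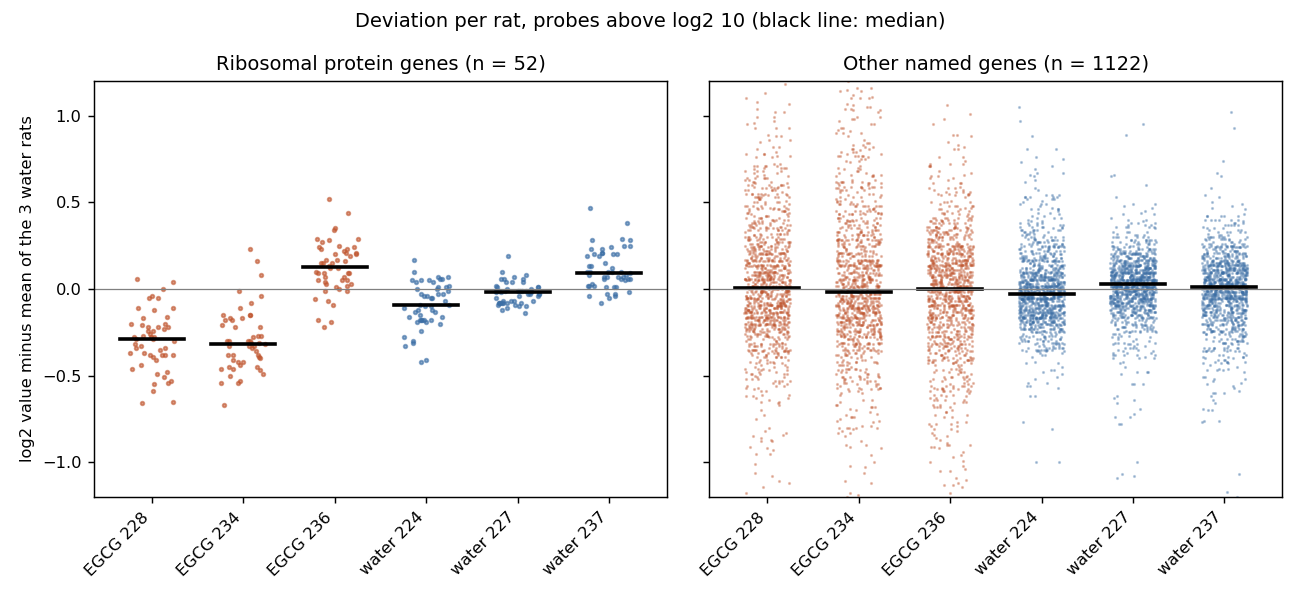
Deviation of each gene in each rat, for the 52 ribosomal protein genes above log2 10 (left) and the 1122 other named genes above log2 10 (right). The y axis is the log2 value minus the mean of the 3 water rats, a point is a gene and the black line is the median. The ribosomal protein genes sit low in EGCG_228 and EGCG_234 (medians -0.29 and -0.32) and at 0.13 in EGCG_236. The other genes centre on 0 in every rat, near which quantile normalization holds so large a set. The axis ends at 1.2 in both directions, and 46 of the other genes have a value outside it.

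The spread among rats was correspondingly wide in the EGCG group. The median standard deviation (SD) of a member was 0.27 over the 3 EGCG rats and 0.11 over the 3 water rats, and the EGCG value was the larger in 44 of 52 (84.6%). In the other genes it was 0.20 in the EGCG rats and 0.17 in the water rats, with the EGCG value larger in 60.2%. Members also followed one another: after subtracting each group's mean, Pearson's r over the 6 rats had a median of 0.79 across the 1326 pairs of the 52 members, and 97.9% of pairs were above 0. Across the 628881 pairs of the other genes the median was 0.01. These pairs share the same 6 arrays and their scaling, so that the figures are descriptions only.

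The pattern was also present before normalization in part. The summed intensity of all 66 probes made up 4.73%, 4.68% and 6.63% of the total signal of the array in the EGCG rats, against 5.59%, 5.86% and 6.12% in the water rats. EGCG_236 again had the highest share and the other EGCG rats the lowest. The median non-normalized intensity of the 52 bright members was 8377, 8395 and 11859 in the EGCG rats, against 11465, 11587 and 8438 in the water rats, so that water_237 was low on that scale. In the authors' normalized table the medians were 8459, 8254 and 11270 in the EGCG rats, against 9598, 9992 and 10496 in the water rats. The place of water_237 within its group thus depended on the scaling: with median scaling the median of the tested members was -0.19 in water_237 relative to the water mean, against 0.09 with quantile normalization. On both scales EGCG_228 and EGCG_234 had the lowest medians (-0.32 and -0.27 with median scaling) and EGCG_236 the highest (0.15).

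Members followed one another across the rats, so that counts of members are not independent. Leaving out EGCG_236, the highest EGCG rat in 50 of the 52 members above log2 10, lowered their EGCG means by construction. It restated the order of the rats given above and was no separate test. The median difference was then -0.28, the EGCG rats lay below all water rats in 44 of 62 members (16.2% of all named genes did so without that rat), and 26 members (41.9%) had an unadjusted p under 0.05, all lower, against 16.0% of all named genes in the same fit, 7.73% lower. Still 0 members passed (limma, smallest adjusted p = 0.0704, Rpl13a), while 1.70% of all named genes did. Without EGCG_228 the median was -0.08, and without EGCG_234 it was -0.07. In each of these fits 0 members had an unadjusted p under 0.05 in limma. In each, 3 members had the remaining EGCG rats below all water rats. With all 6 rats, only 4 of the 62 members (6.45%) had groups that did not overlap: Rpl21, Rpl23a and Rpl27 lower and Rpl15 higher. Over all named genes 16.5% did not overlap, 8.23% lower and 8.25% higher.

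Markers of hepatocytes and of other cells were read in the same rats. The summed linear level of 6 hepatocyte markers was 140368, 141340 and 127268 in the EGCG rats, against 137161, 137346 and 135266 in the water rats, lowest in EGCG_236. Among them, fibrinogen beta (Fgb) read 14.19, 14.11 and 13.43 in the EGCG rats, against 14.64, 14.64 and 13.87 in the water rats. On the quantile-normalized scale, Fgb was thus lowest within each group in the rat where most ribosomal protein genes were highest. The antiprotease gene Serpina1 had the same order, at 15.06, 14.95 and 14.29 in the EGCG rats, against 15.16, 15.09 and 14.49 in the water rats. The hepatocyte marker Ttr was lowest in the same rats, at 14.48, 14.75 and 14.12 in the EGCG rats, against 13.91, 14.02 and 13.84 in the water rats. All its EGCG values were the higher (limma adjusted p = 0.295). Alb ran the other way, at 14.84, 15.00 and 15.32 in the EGCG rats, against 14.80, 14.84 and 15.32 in the water rats, and so did Tf. The marker Cps1 was lowest in EGCG_236, but water_237 was not the lowest water rat. For the ribosomal protein genes, the place of water_237 depended on the scaling, as given above. Lymphocyte markers were near the floor (6 of 10 measured, the T cell gene Cd3e at 6.23 to 6.76), and their sums ran from 626 to 656 in the EGCG rats and from 622 to 659 in the water rats. Of these markers, Cd8a was higher in all EGCG rats (0.39, limma adjusted p = 0.334) and Ptprc lower in all (-0.29, adjusted p = 0.436). The groups of the other measured lymphocyte markers overlapped. The stellate and matrix list was lower in the EGCG rats (2 of 6 measured passed; sums of 4311 to 5494 in EGCG rats and 7699 to 9718 in water rats), and so were the red cell genes (3 of 4; 13122 to 25848 in EGCG rats and 51003 to 74224 in water rats). For both lists EGCG_236 was the highest EGCG rat and lay below every water rat. The sums of 4 cholangiocyte markers were also apart, at 3374, 2648 and 2115 in the EGCG rats, against 4311, 4747 and 5753 in the water rats, with EGCG_236 the lowest (0 of 4 passed). The part of cell makeup in the ribosomal protein values was not tested.

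**Figure D3:**
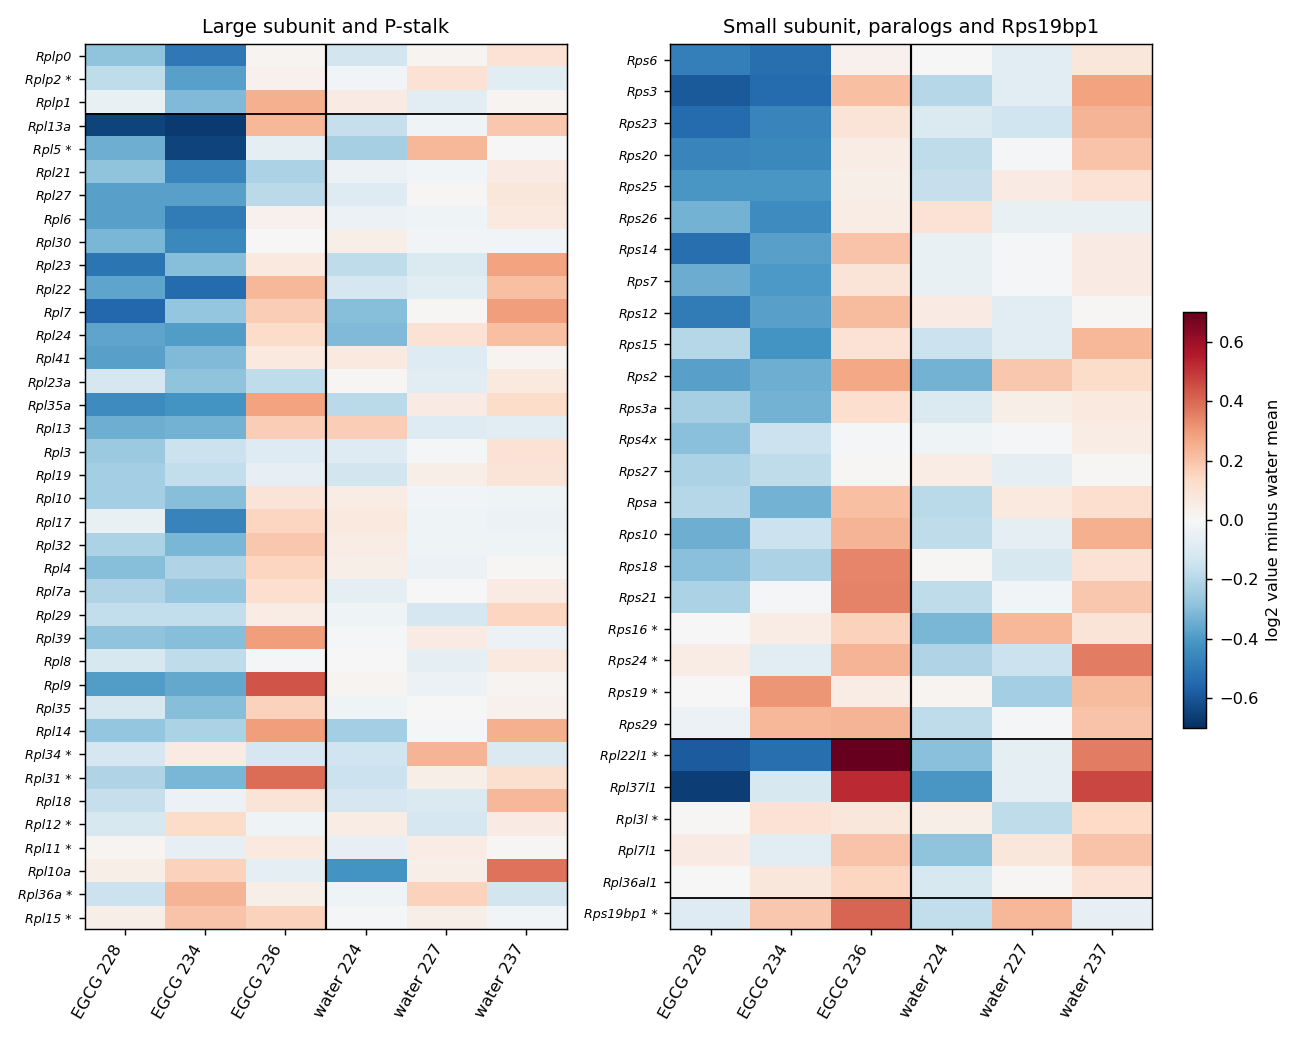
Each of the 66 ribosomal protein genes in each of the 6 rats. Columns are rats (EGCG left of the black line, water right of it), rows are genes ordered by their difference within each class, and colour is the log2 value minus the water mean. Asterisks mark probes below log2 10, and values beyond the colour scale take its end colour. Blue fills most of the EGCG_228 and EGCG_234 columns, while EGCG_236 is pale or red in most rows, and Rpl22l1 is the darkest red.

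In the 60S subunit, 0 of the 32 tested members passed, 30 were below 0 and the median difference was -0.15. Rpl13a, which in human cells also serves in a complex that silences inflammatory mRNAs, had the lowest difference. It read 11.41, 11.39 and 12.29 in the EGCG rats, against 11.90, 12.03 and 12.24 in the water rats. EGCG_236 was thus the highest of all 6 rats and the other EGCG rats the lowest, and the difference of -0.36 (SE 0.24, 95% interval -0.89 to 0.17, limma adjusted p = 0.677) did not pass. It was -0.65 without EGCG_236 (adjusted p = 0.0704), -0.22 without EGCG_228 and -0.21 without EGCG_234.

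Rpl27 and Rpl21, both proteins of the 60S subunit, had the smallest p of the family. Rpl27 read 12.97, 12.96 and 13.16 in the EGCG rats, against 13.26, 13.36 and 13.43 in the water rats. Rpl21 read 12.92, 12.74 and 12.98 in the EGCG rats, against 13.16, 13.18 and 13.27 in the water rats. In both, all EGCG rats lay below all water rats, with EGCG_236 the highest of its group, and the differences of -0.32 (SE 0.15, limma adjusted p = 0.500 for each) did not pass. On the non-normalized scale the groups of Rpl27 overlapped (7834, 7948 and 9366 in the EGCG rats, against 11416, 11810 and 8358 in the water rats), with water_237 below EGCG_236. The groups of Rpl21, Rpl23a and Rpl15 overlapped on that scale too, so that none of these 4 members kept them apart.

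Rpl23a, which sits by the exit tunnel where the signal recognition particle docks, read 14.33, 14.17 and 14.27 in the EGCG rats, against 14.46, 14.37 and 14.52 in the water rats. Of the 52 bright members, only Rpl23a and Rpl10a did not have their highest EGCG value in EGCG_236. Its difference was -0.19 (SE 0.14, limma adjusted p = 0.709). Rpl3, a protein near the peptidyl transferase centre, read 13.76, 13.87 and 13.93 in the EGCG rats, against 13.93, 14.02 and 14.12 in the water rats, with groups that met at 13.93. Rpl39, a small protein of the exit tunnel wall, read 13.11, 13.09 and 13.68 in the EGCG rats, against 13.38, 13.45 and 13.35 in the water rats. EGCG_236 was highest there. The differences of Rpl3 and Rpl39 were -0.17 and -0.10 (limma adjusted p = 0.773 and 0.915). That of Rpl39 was -0.29 without EGCG_236 and 0.00 without EGCG_228 or without EGCG_234.

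Rpl10a, a protein of the L1 stalk, went against the block. It read 13.32, 13.45 and 13.21 in the EGCG rats, against 12.86, 13.32 and 13.66 in the water rats. Here EGCG_236 was the lowest EGCG rat, and water_224 and water_237 were the lowest and highest of all (difference 0.04, SE 0.20, limma adjusted p = 0.972). Without water_224 the difference was -0.17, and without water_237 it was 0.23.

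Rpl22 and its paralog Rpl22l1 can replace each other in the 60S subunit in mouse. Rpl22 read 12.95, 12.77 and 13.54 in the EGCG rats, against 13.19, 13.23 and 13.52 in the water rats. Rpl22l1, on a much dimmer probe, read 7.50, 7.55 and 8.83 in the EGCG rats, against 7.79, 8.01 and 8.45 in the water rats. The rats had nearly the same order in both, EGCG_236 highest, water_237 next and EGCG_228 and EGCG_234 lowest. Differences were -0.22 (limma adjusted p = 0.796) for Rpl22 and -0.12 (SE 0.31, adjusted p = 0.943) for Rpl22l1, which was -0.56 without EGCG_236 and 0.11 without EGCG_228. Rpl22 was -0.44 without EGCG_236, -0.07 without EGCG_234 and -0.11 without water_237. Rpl22l1 had the widest SD in the EGCG group of all members (0.76, against 0.33 in water rats).

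Among the other paralogs, Rpl37l1 had a similar order, at 11.15, 11.70 and 12.34 in the EGCG rats, against 11.40, 11.75 and 12.29 in the water rats. Rpl36al1 was flat, at 12.49, 12.57 and 12.64 in the EGCG rats, against 12.38, 12.50 and 12.59 in the water rats. Its difference of 0.08 (0.02 without water_224, 0.13 without water_237) and those of Rpl7l1 (0.06), Rpl3l (0.06) and Rpl37l1 (-0.08) did not pass (limma adjusted p from 0.920 to 0.963). Rpl37l1, Rpl7l1 and Rpl3l were named to complete the class after their values were seen.

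The P-stalk, which recruits the translation factors that use GTP, was read by 2 bright probes and a dim one. Rplp0, the stalk's base, read 14.68, 14.46 and 14.98 in the EGCG rats, against 14.83, 14.98 and 15.06 in the water rats. Rplp1 read 13.09, 12.82 and 13.39 in the EGCG rats, against 13.20, 13.06 and 13.16 in the water rats. EGCG_234 was the lowest rat for both, and EGCG_236 reached the upper water rats for Rplp0 and lay above all of them for Rplp1. Differences were -0.25 (SE 0.17, limma adjusted p = 0.674) for Rplp0 and -0.04 (SE 0.17, adjusted p = 0.972) for Rplp1. Rplp0 was -0.41 without EGCG_236 and -0.13 without EGCG_234, and Rplp1 ran from -0.18 (without EGCG_236) to 0.10 (without EGCG_234). Rplp2 averaged 6.34, below the filter, and was not tested.

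In the 40S subunit, 0 of the 22 tested members passed, 17 were below 0 and the median difference was -0.15, as in the 60S subunit. Rps6, the protein that S6 kinase phosphorylates downstream of mTORC1, read 13.15, 13.10 and 13.66 in the EGCG rats, against 13.63, 13.55 and 13.71 in the water rats. EGCG_228 and EGCG_234 lay below the water rats and EGCG_236 among them, and the difference was -0.33 (SE 0.18, 95% interval -0.72 to 0.07, limma adjusted p = 0.590). It was -0.51 without EGCG_236 (adjusted p = 0.0848) and -0.22 without EGCG_234.

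Rps3, at the mRNA entry of the small subunit, and Rps20, in its head, are neighbours in the ribosome. Rps3 read 12.50, 12.55 and 13.30 in the EGCG rats, against 12.88, 13.01 and 13.37 in the water rats. Rps20 read 13.55, 13.56 and 14.07 in the EGCG rats, against 13.83, 14.00 and 14.21 in the water rats. The order of the rats was the same in both, with EGCG_236 second to water_237. Their differences were -0.31 and -0.29 (SE 0.23 and 0.18, limma adjusted p = 0.722 and 0.666). Without EGCG_236 they were -0.56 and -0.45. Rps3 was -0.16 without EGCG_228 and likewise without water_237, and Rps20 was -0.19 without water_237.

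Rps14, of the subunit's platform, read 13.75, 13.90 and 14.48 in the EGCG rats, against 14.23, 14.27 and 14.34 in the water rats. Rpsa, whose product is also known as the precursor of a laminin receptor, read 14.10, 13.97 and 14.50 in the EGCG rats, against 14.11, 14.37 and 14.42 in the water rats. In both the EGCG group spanned the whole range of the water group. Rps4x, the X-linked copy of Rps4, and Rps27, a zinc-binding protein, were steadier: Rps4x read 13.56, 13.70 and 13.84 in the EGCG rats, against 13.82, 13.84 and 13.90 in the water rats. Rps27 ran from 13.75 to 13.98 in the EGCG rats and from 13.90 to 14.02 in the water rats. These 4 differences lay between -0.23 and -0.11 (limma adjusted p from 0.762 to 0.905). When a rat was left out, Rps14 ran from -0.44 (without EGCG_236) to -0.09 (without EGCG_228), and Rpsa from -0.26 (without EGCG_236) to 0.00 (without EGCG_234). Rps4x and Rps27 ran from -0.22 to -0.09 and from -0.20 to -0.08, lowest without EGCG_236 and highest without EGCG_228.

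Rps29, another small zinc-binding protein, had the highest difference of the bright members. It read 12.99, 13.26 and 13.27 in the EGCG rats, against 12.85, 13.02 and 13.23 in the water rats, with overlapping groups (0.14, SE 0.16, limma adjusted p = 0.853), and was 0.05 without water_224 and 0.24 without EGCG_228. The left-out Rps9, by contrast, differed by 2.11 on the brighter of its 2 kept probes (SE 0.17, limma adjusted p = 0.000412). That probe read 12.62, 12.71 and 13.01 in the EGCG rats and 10.51, 10.81 and 10.67 in the water rats. The other probe is not given here. No ribosomal protein gene among the 62 tested came near that size, the highest upper bound of a 95% interval being 0.57 (Rpl37l1 and Rpl22l1).

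Of the 14 members below log2 10, 4 averaged below the filter (Rpl11, Rpl34, Rpl36a and Rplp2) and have levels only. Rpl11 read 6.38, 6.29 and 6.43 in the EGCG rats, against 6.30, 6.41 and 6.37 in the water rats, close to the floor of the array. Rpl11 and its partner Rpl5 form a particle with the 5S rRNA that in mammalian cells can also bind Mdm2. Whether the low levels are a property of the probes was not tested. Rpl5 read 7.76, 7.45 and 8.03 in the EGCG rats, against 7.87, 8.33 and 8.09 in the water rats. EGCG_234 was low and the groups overlapped (-0.35, SE 0.18, limma adjusted p = 0.546). Its difference was -0.20 without EGCG_234.

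Other dim members gave small differences with overlapping groups, apart from Rpl15. Rps19, mutated in human Diamond-Blackfan anaemia, read 6.38, 6.69 and 6.43 in the EGCG rats, against 6.40, 6.14 and 6.60 in the water rats. Rps24, mutated in the same disease, read 7.92, 7.79 and 8.11 in the EGCG rats, against 7.66, 7.72 and 8.23 in the water rats. Rpl15, a core 60S protein, read 7.22, 7.38 and 7.33 in the EGCG rats, against 7.16, 7.21 and 7.15 in the water rats, a gap of 0.01 between the groups. The differences of Rps19, Rps24 and Rpl15 were 0.12, 0.07 and 0.13 (limma adjusted p = 0.833, 0.938 and 0.774). Rps19bp1 read 7.70, 7.98 and 8.20 in the EGCG rats, against 7.62, 8.03 and 7.73 in the water rats (0.17, adjusted p = 0.812), and its difference was 0.05 without EGCG_236 and 0.30 without EGCG_228. That of Rps19 was 0.00 without water_227 and 0.23 without water_237. The median difference over the 10 tested members below log2 10 was 0.07, against -0.15 over the 52 above it. No probe under the symbols Rps27a, Rps27l or Rpl39l was in the annotation used here.

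Other genes of the translation machinery were read from a list of 45 translation factors and further genes with TOP mRNAs, 31 of them tested. Of these, 0 passed in either direction, and 24 were below 0 (77.4%, against 48.9% of all named genes). The median difference was -0.12, and 2 had an unadjusted p under 0.05 in limma, against 11.6% of all named genes. Npm1, the nucleolar protein nucleophosmin, read 11.30, 11.02 and 11.51 in the EGCG rats, against 11.75, 11.93 and 11.76 in the water rats. Nap1l1, a histone chaperone, read 9.50, 9.29 and 9.68 in the EGCG rats, against 9.92, 10.19 and 10.01 in the water rats. All EGCG rats, EGCG_236 included, lay below all water rats in both, and the differences were -0.53 and -0.55 (limma adjusted p = 0.266 and 0.218). The initiation factor Eif4b had the same arrangement (-0.32, adjusted p = 0.500). Of the 31 genes, 5 had EGCG rats all below the water rats. Another 2 had them all above, Eif5a and, by less than the rounding, Eef2. Together these were 22.6% of the list, against 16.5% of all named genes.

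Other genes of this list with known TOP mRNAs were also low in EGCG_234. Rack1, a scaffold protein on the 40S subunit, read 12.50, 12.34 and 12.80 in the EGCG rats, against 12.86, 12.78 and 12.81 in the water rats. The elongation factor gene Eef1a1 read 15.00, 14.80 and 15.18 in the EGCG rats, against 15.02, 14.95 and 15.09 in the water rats, and Tpt1, a TOP mRNA gene of growth control, 14.42, 14.33 and 14.67 in the EGCG rats, against 14.68, 14.52 and 14.37 in the water rats. EGCG_234 was the lowest rat and EGCG_236 the highest EGCG rat in these 3 genes. Eef2, the translocation factor, did the opposite within its group, at 13.36, 13.30 and 13.18 in the EGCG rats, against 13.18, 13.17 and 13.14 in the water rats. Differences of the 4 were -0.27, -0.03, -0.05 and 0.12 (limma adjusted p from 0.649 to 0.976). Fau and Pabpc1 had no probe under those symbols. Over the 18 tested genes of the list above log2 10, EGCG_236 lay above both other EGCG rats in 13 (72.2%).

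Ribosome assembly, rRNA synthesis and mTORC1 genes formed a list of 64, of which 49 were tested and 0 passed. The median difference was -0.08, and 4 had an unadjusted p under 0.05 in limma, against 11.6% of all named genes. In this list the rats had another order. EGCG_236 was the highest of the 6 rats in 4 of 49 genes (8.16%), against 28 of the 62 ribosomal protein genes (45.2%). Over all named genes the share was 19.0%. The assembly genes were also much dimmer, with a median level of 8.30 in EGCG_228, against 12.96 for the 62 ribosomal protein genes. The part of brightness in this contrast was not tested. Nop58, a core protein of the particles that methylate rRNA, read 9.67, 9.41 and 9.75 in the EGCG rats, against 10.04, 10.01 and 10.49 in the water rats. Ncl, nucleolin, read 8.47, 8.59 and 8.31 in the EGCG rats, against 9.04, 8.69 and 8.87 in the water rats. Both groups were apart in both genes, and Fbl, the rRNA methyltransferase, was also lower in all EGCG rats (10.28, 10.02 and 10.08 in the EGCG rats, against 10.33, 10.30 and 10.59 in the water rats). Differences were -0.57, -0.41 and -0.28 (limma adjusted p = 0.252, 0.365 and 0.613).

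Myc, the transcription factor that drives ribosome synthesis, read 8.58, 8.82 and 9.10 in the EGCG rats, against 10.18, 9.17 and 8.83 in the water rats, with water_224 far above the rest (-0.56, limma adjusted p = 0.571). Mdm2, the p53 ligase, read 9.40, 9.21 and 9.18 in the EGCG rats, against 8.76, 9.10 and 8.73 in the water rats, all EGCG rats being the higher (0.40, SE 0.16, adjusted p = 0.394). Of the 49 genes, 9 had EGCG rats all below the water rats and 3 all above, or 24.5% together, against 16.5% of all named genes.

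**Figure D4:**
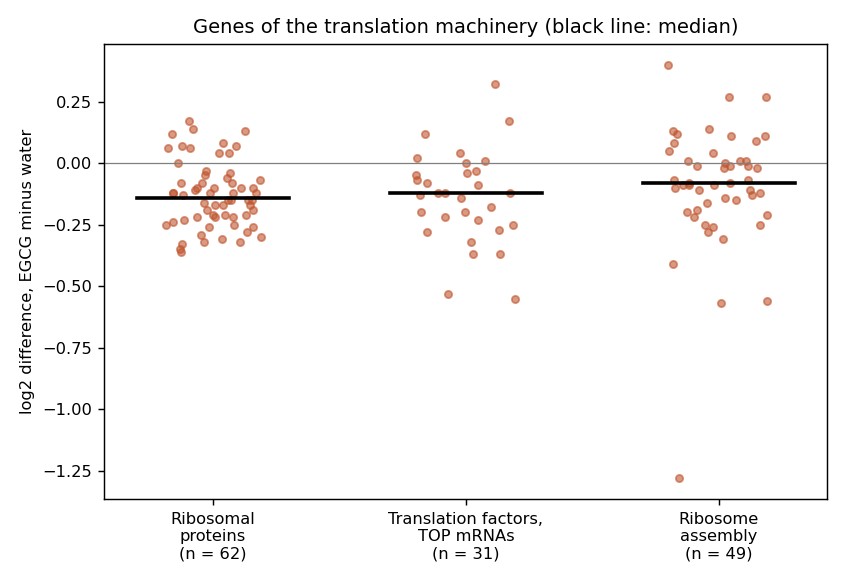
Log2 difference, EGCG minus water, of each tested gene in 3 groups: 62 ribosomal protein genes, 31 translation factor and other TOP mRNA genes, and 49 ribosome assembly genes. A point is a gene and the black line is the median, at -0.14, -0.12 and -0.08. The ribosomal protein genes occupy the narrowest range, from -0.36 to 0.17, and the assembly genes extend to -1.28 (Ddit4, an mTORC1 inhibitor, named for its extreme value). Ddit4 read 10.89 in water_224, against 8.41 and 8.13 in the other water rats and 8.03, 7.59 and 7.98 in the EGCG rats. Its difference did not pass (SE 0.55, limma adjusted p = 0.463).

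Members with and without a C/T run at the start had similar values, with no test made. In the 33 bright members with a C/T run at the start, the median distance from EGCG_228 and EGCG_234 up to EGCG_236 was 0.46, and in the 9 without one it was 0.41. The median differences between EGCG and water rats were -0.15 and -0.21. Rps6 and Rpl13a, printed above without and with a run at the annotated start, were low in the same rats. The split rests on the annotated start, and Rps6 has such a run further before it. It therefore does not separate members with and without TOP mRNAs.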

How the data were processed

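The authors deposited non-normalized bead intensities for 22523 probes, linear and above 0 throughout, and a second table of intensities they had normalized by a method not given in the sources used here. Symbols (13793 probes) came from the platform annotation. Genes with several kept probes, among them Eef1a1 (5) and Alb (2), are given by the brightest one, and their other probes are not given here. From the deposited intensities, limma 3.58.1 (R 4.3.3) gave normexp background correction (offset 50), quantile normalization between arrays and log2 values, in which the offset compresses differences of dim probes. The fit (lmFit, eBayes with an intensity trend, 6 arrays, no covariates, two-sided) covered the 13514 probes kept, with Benjamini-Hochberg adjustment over all of them and moderated 95% intervals. Other normalizations, filters, array weights and the authors' table were tried. Each rat is 1 sample, and 3 rats a group limit the precision. Slide and scan dates were not given in the sources used here, so that a technical batch cannot be told apart from the pattern among the rats.

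The members and lists were chosen with earlier results of these data known. Named members were those with groups that did not overlap, the 6 highest and 6 lowest differences, the 4 smallest p and a set of key genes. From the other lists, the 3 smallest p and key genes were named. Among the other cell type lists, limma called 0 of 4 cholangiocyte, 0 of 6 macrophage and 0 of 2 pancreas and fat genes and 1 of 3 endothelial genes, lower (4, 4, 1 and 3 at an unadjusted p under 0.05). The macrophage genes so counted were mixed. Marco was higher in all EGCG rats (1.03, limma adjusted p = 0.130), while Cd14, C1qb and C1qc were lower in all of them. Of all named genes, 11.6% had an unadjusted p under 0.05.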

Additional observations from a re-analysis of the deposited data

How the results depend on the processing

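With every alternative tried, 0 ribosomal protein genes, 0 translation genes and 0 assembly genes passed in limma; the smallest adjusted p of a member ran from 0.0704 (without EGCG_236) to 0.820 (without EGCG_234). Members with an unadjusted p under 0.05 numbered 26 without EGCG_236 (41.9%, against 16.0% of all named genes), 12 with array weights, which weighted EGCG_236 lowest (19.4%, against 15.1%), and at most 2 otherwise. The median difference over members stayed below 0, -0.20 with array weights, from -0.15 to -0.10 across the other settings and from -0.28 to -0.07 when a rat was left out. Members whose groups did not overlap numbered 4 (6.45%, against 16.5% of all named genes) and 0 with median scaling (named genes 12.2%). There were 5 such members with cyclic loess (8.06%, against 16.3%) and 6 with the authors' table (9.68%, against 16.5%). They numbered from 4 to 45 when a rat was left out: 45 without EGCG_236 (72.6%, against 34.2%) and 8 without water_224 (13.1%, against 25.6%). Single members changed sign when a rat was left out: Rpl10a ran from -0.17 to 0.23, Rpl22l1 from -0.56 to 0.11, Rplp1 from -0.18 to 0.10 and Rps24 from -0.04 to 0.25; the cause was not tested. Restricting to members above log2 10 (-0.15) or leaving out paralogs and Rps19bp1 was chosen after seeing the data. No paired analysis was possible because the rat numbers differ between the groups.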
